A study of Mus musculus with 4 samples.

Results

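The genes described here drive the cell division cycle and copy the DNA: 46 genes that encode the cyclins and their kinases, the inhibitors of those kinases, the retinoblastoma and E2F proteins, the factors that load and run replication, and the proteins of G2 phase and mitosis. They were taken by gene symbol out of 22180 genes that the array names singly. Of the 46, 44 had a probe set that the platform annotation gives to exactly 1 gene, and 37 were bright enough to be tested. Ccnb1 and Ccne2 had no such probe set and were not analysed here. Cdk1, Cdc6, Ccnd1, Birc5, Bub1, Bub1b and Ube2c were measured but lay below the low-value filter on at least 3 of the 4 arrays.

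Cell division is ordered by cyclins that bind and activate cyclin-dependent kinases (CDKs). In G1 phase the D cyclins with Cdk4 and Cdk6, and then the E cyclins with Cdk2, release E2F transcription factors from the retinoblastoma family, and the CDK inhibitors oppose them. E2F factors turn on the genes of DNA replication, and a later set of genes, peaking in G2 phase and mitosis, builds the spindle and separates the chromosomes. Naive T cells rest outside the cycle until antigen engages their receptor, so most transcripts of the later set are known to be scarce in them.

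RNA came from T cells sorted as naive CD4-positive cells, CD44-low and CD25-negative among other markers, from spleen and lymph node tissue. The donors were C57BL/6 mice, either TACI-/-, lacking the receptor TACI encoded by Tnfrsf13b, or wild-type (WT), and no treatment or age is given in the labels. Each genotype had 2 arrays of a 1-colour Affymetrix design, called biological replicates. The labels give 2 mice per genotype but do not say whether each array is 1 mouse, so errors and p-values measure the spread between these samples, and the number of arrays limits the precision. Values are log2 units per probe set, in which a difference of 1 is a 2-fold change, and fold changes are TACI-/- against WT. The question of the comparison was which transcripts differ in naive T cells without TACI. Tnfrsf13b was at 2.73 and 3.09 on the TACI-/- arrays and 2.95 and 3.02 on the WT arrays, below the filter of 3.74 to 3.77 on all 4. A probe set this dim does not check the genotype labels. The T cell genes Cd3e and Cd4 lay between 10.4 and 11.6 on every array, and Cd8a was below the filter on every array, whereas Cd8b1 was at 6.11 and 5.73 in TACI-/- and 6.55 and 6.59 in WT cells.

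Promoters of cell cycle genes are known to carry elements that differ by phase, and 5 are shown here to set the roles side by side. The E2F element is bound by E2F factors, the cell cycle genes homology region (CHR) is bound by complexes that repress or activate late genes, and the CCAAT box is bound by the factor NF-Y. RefSeq promoter sequences (GRCm38.p6) matched 37 of the 46 genes, with 41 promoters. Aurkb, Ccna2, Ccnd1, Ccnd2, Ccne2, Gmnn, Mcm4, Rb1 and Stmn1 had no entry. The 250 bases before each start were searched on both strands for TTTCCCGC, TTTCGCGC, TTTGCCGC or TTTGGCGC (E2F), for TTTGAA or TTCGAA (CHR) and for CCAAT. E2F letters stood in 4 of 8 promoters of the licensing genes (Mcm5, Mcm6, Mcm7 and Cdc6) and in 1 of 13 of the G2 and mitosis genes, against 1.86% of all 32851 promoters. CHR letters stood in 8 of 13 promoters of the G2 and mitosis genes and 2 of 8 of the licensing genes, against 17.1% of all. CCAAT stood in 11 of 13 and 6 of 8, against 33.8% of all. In the S phase genes Pcna, Rrm1, Rrm2, Tk1 and Tyms, E2F letters stood in 0 of 5 promoters and CHR letters in 0 of 5. In the retinoblastoma and E2F genes these were 1 of 5 and 2 of 5. They were 1 of 6 and 0 of 6 in the G1 cyclins and kinases, and 0 of 4 and 0 of 4 in the inhibitors. The letters thus did not sort cleanly by role. Only these exact words were searched, so a count of 0 does not show that the element is absent. Such matches describe the letters, not binding, and letters of different motifs overlapped in 0 of the 41 promoters.

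The sequences are the 180 bases before the start, 5′ to 3′ on the gene's strand, with every match in capitals (ATTGG is CCAAT on the other strand). Mcm6 (chr1:128359706-128359885, minus strand) stands for the licensing genes, and its first block of capitals is a pair of E2F words on opposite strands that overlap each other. Cdk1 (chr10:69352913-69353092, minus strand) holds all 3 motifs, and Ccnb2 (chr9:70421555-70421734, minus strand) has a CHR word and 3 CCAAT boxes. Pcna (chr2:132253181-132253360, minus strand) and Rrm1 (chr7:102441515-102441694, plus strand) are shown because their transcripts had an unadjusted p under 0.05 between genotypes.
Mcm6: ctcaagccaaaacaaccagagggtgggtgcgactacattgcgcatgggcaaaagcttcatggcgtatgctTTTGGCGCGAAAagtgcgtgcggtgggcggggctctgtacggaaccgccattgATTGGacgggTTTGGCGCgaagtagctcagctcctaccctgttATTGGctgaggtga
Cdk1: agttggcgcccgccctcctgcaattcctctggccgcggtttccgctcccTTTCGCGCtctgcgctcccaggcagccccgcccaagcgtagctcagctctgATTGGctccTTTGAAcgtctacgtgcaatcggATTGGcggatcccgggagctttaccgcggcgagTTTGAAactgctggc
Ccnb2: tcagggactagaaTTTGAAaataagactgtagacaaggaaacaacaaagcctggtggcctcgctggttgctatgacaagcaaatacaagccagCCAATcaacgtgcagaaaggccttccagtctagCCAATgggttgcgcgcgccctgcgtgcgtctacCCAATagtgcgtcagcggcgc
Pcna: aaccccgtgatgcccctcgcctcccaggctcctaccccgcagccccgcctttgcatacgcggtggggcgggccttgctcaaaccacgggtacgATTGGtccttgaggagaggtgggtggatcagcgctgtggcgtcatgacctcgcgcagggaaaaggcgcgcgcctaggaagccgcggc
Rrm1: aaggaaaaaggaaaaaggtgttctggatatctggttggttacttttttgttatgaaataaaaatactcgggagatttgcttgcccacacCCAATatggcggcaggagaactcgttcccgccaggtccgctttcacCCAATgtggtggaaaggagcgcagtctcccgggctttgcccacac

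In both genotypes most genes of G1 phase and of licensing lay above the filter, and many mitotic genes lay at or under it. Of 7 measured G1 cyclins and kinases, 6 were above the filter on all 4 arrays, as were all 5 retinoblastoma and E2F genes and 8 of 9 licensing genes. Of 15 measured G2 and mitosis genes, 7 were above the filter on all 4 arrays and 4 (Cdk1, Birc5, Bub1 and Ube2c) were below it on every array. Just inside the filter, with 2 arrays above it, were Top2a and Cdkn2c. Just outside, with 1, were Cdc6, Ccnd1 and Bub1b. None of these 37 tested genes passed the filter through TACI-/- arrays alone.

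**Figure D1:**
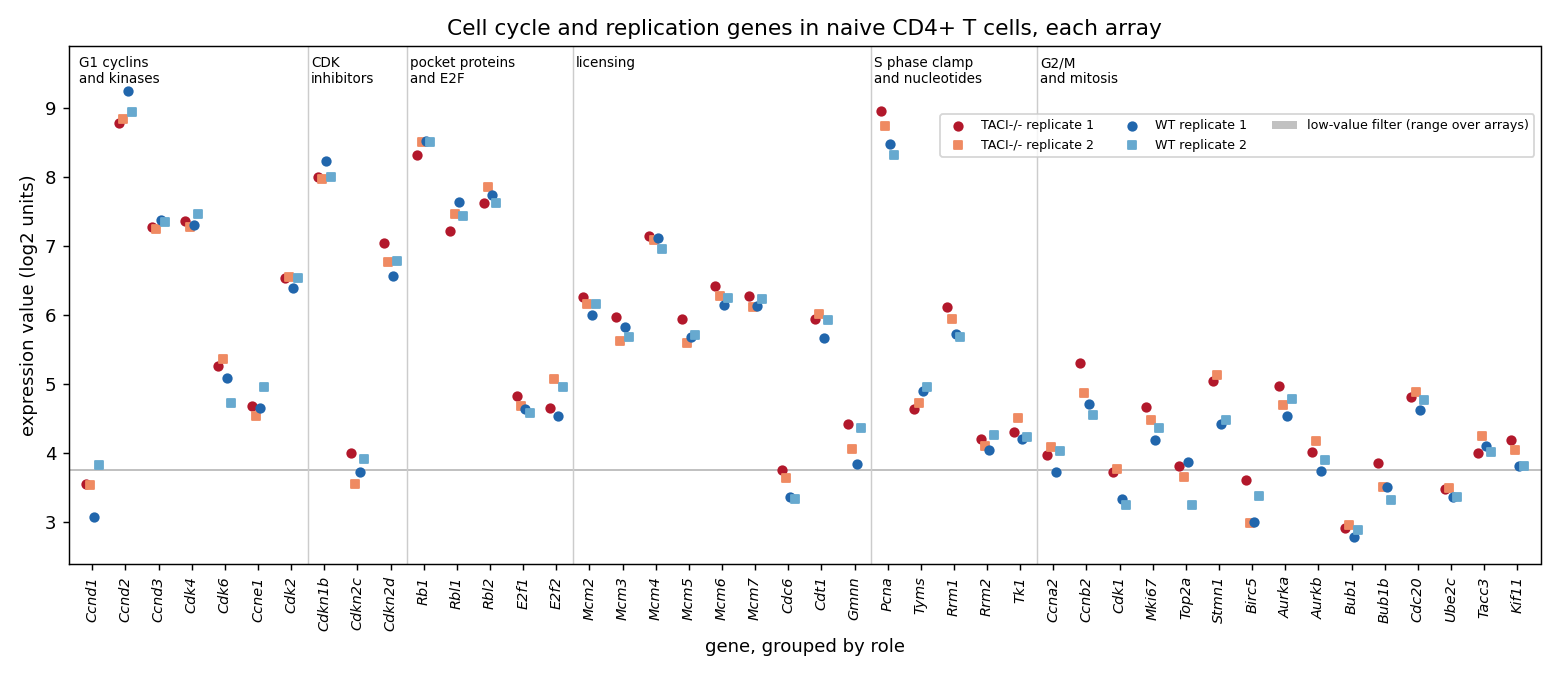
Expression value (log2 units, y axis) of the 44 measured genes (x axis, by role) on each of the 4 arrays; red points are TACI-/-, blue points are WT, circles are replicate 1, squares are replicate 2, and the grey band is the low-value filter of 3.74 to 3.77. The 4 points of most genes lie close together, and most G2 and mitosis genes lie between 3 and 5, near the band.

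None of the 37 tested cell cycle genes passed the threshold between genotypes. In limma over all 13782 tested genes, 0 had a Benjamini-Hochberg adjusted p under 0.05, where 0.138% of all tested genes did, and the lowest adjusted p was 0.256, for Stmn1. At an unadjusted limma p under 0.05, 5 were higher in TACI-/- cells (Stmn1, Pcna, Cdk6, Ccnb2 and Rrm1) and 0 were lower, against 4.94% of all tested genes higher and 3.84% lower. Both TACI-/- arrays lay above both WT arrays for each of these 5 genes, so leaving out any single array could not change their sign. Their count at an unadjusted limma p under 0.05 did change, where fewer arrays also weaken the test. Without TACI-/- replicate 1 only Stmn1 remained at that level, and without WT replicate 2 Stmn1 did and Ccnd2, which was lower, joined it.

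The differences were small, and mostly above 0. Of the 37 tested genes 27 had a positive log2 fold change (73%, against 51.8% of all tested genes), with a median of 0.13 against 0.01 for all tested genes. That median was 0.076 without TACI-/- replicate 1 and 0.054 without WT replicate 1. Over all 44 measured genes, the dim ones included, 34 were positive (77.3%, against 53.2% of all genes), with a median of 0.13. Both TACI-/- arrays lay above both WT arrays for 13 of the 37, against 20.5% of all tested genes, and below both for 4, against 18.1%. The 95% interval of each of the 37 fold changes, not adjusted for the number of genes, lay within 1 log2 unit of 0, short of a 2-fold change in either direction, and the bound farthest from 0 was 0.95, of Stmn1. A missed threshold does not show that a level was equal, and smaller differences are within these intervals. In bulk RNA, a larger share of cycling cells and more transcript per cell cannot be told apart.

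**Figure D2:**
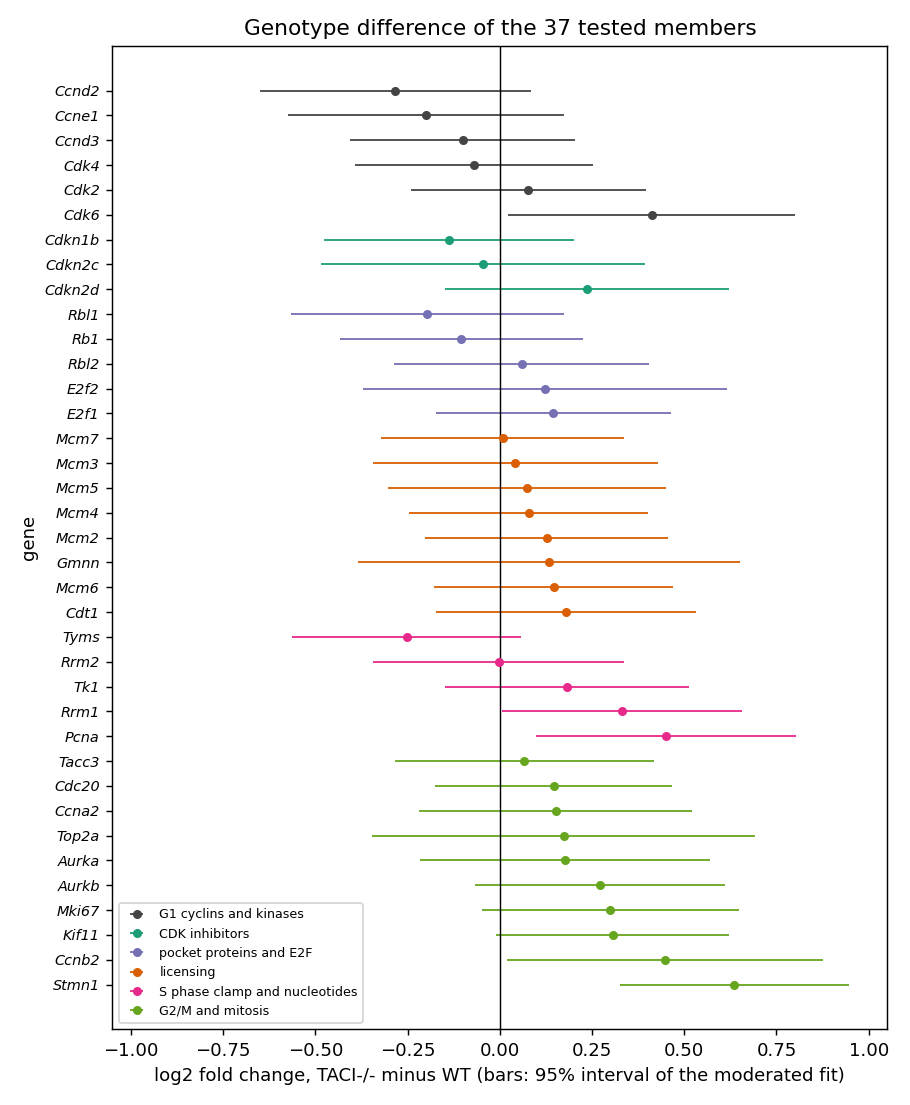
Log2 fold change, TACI-/- minus WT (x axis), of the 37 tested genes (y axis), coloured by role, with the 95% interval of the moderated fit (2 arrays per genotype). All intervals lie within 1 log2 unit of 0, and those of Cdk6, Pcna, Rrm1, Ccnb2 and Stmn1 lie above 0.

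Roles differed in the sign of their medians. The medians were -0.09 for the G1 cyclins and kinases, -0.05 for the inhibitors, 0.06 for the retinoblastoma and E2F genes, 0.10 for licensing, 0.18 for the clamp and nucleotide enzymes and 0.22 for G2 and mitosis. All 8 tested licensing genes and all 10 tested G2 and mitosis genes had a positive fold change, as did all 15 measured G2 and mitosis genes. These medians moved with single arrays. Without TACI-/- replicate 1 the licensing median fell to 0.0023, with 4 of the 8 genes negative, and without WT replicate 1 it was 0.050. Without TACI-/- replicate 2 the clamp and nucleotide median was 0.083, and without WT replicate 2 the G1 median was -0.022 (-0.057 without TACI-/- replicate 2). Over the 4 arrays left out in turn, the median of the inhibitors ranged from -0.15 to 0.18, that of the retinoblastoma and E2F genes from -0.09 to 0.07, and that of G2 and mitosis from 0.20 to 0.30. The roles were not tested against each other.

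**Figure D3:**
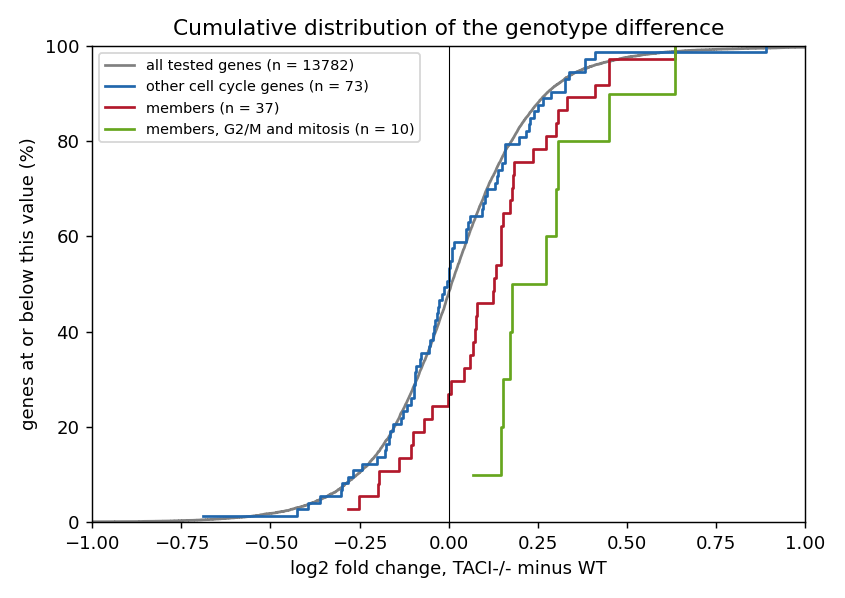
Percentage of genes (y axis) at or below each log2 fold change, TACI-/- minus WT (x axis, cut at -1 and 1), for all 13782 tested genes (grey), 73 other cell cycle genes (blue), the 37 tested genes described here (red) and their 10 G2 and mitosis genes (green). The blue line follows the grey one, with positive values in 49.3% and 51.8%, while the red and green lines lie to the right, with medians of 0.13 and 0.22.

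Among the G1 cyclins and kinases, the D cyclin genes Ccnd2 and Ccnd3 had negative fold changes and the kinase gene Cdk6 the highest positive one, none past the threshold. Cdk6, a partner of the D cyclins, stood at 5.27 and 5.37 on the TACI-/- arrays, against 5.09 and 4.73 on the WT arrays. The groups did not overlap, but the WT arrays stood 0.36 apart, and the log2 fold change was 0.41 ± 0.16 (SE, adjusted p in limma = 0.562). Ccnd2, the D cyclin that senses mitogens in lymphocytes, stood at 8.78 and 8.84 on the TACI-/- arrays, against 9.25 and 8.94 on the WT arrays, a log2 fold change of -0.28 ± 0.15 (SE). Ccnd3, the D cyclin known for its role in thymocyte expansion, had -0.10, with 4 arrays that spanned 7.24 to 7.37. Of the kinases that drive entry into S phase, Cdk4 had -0.07 and Cdk2 0.08, and Ccne1, the cyclin partner of Cdk2, had -0.20 with overlapping groups. Ccnd1, the D cyclin of many non-lymphoid tissues, lay at 3.55 and 3.54 in TACI-/- and 3.07 and 3.83 in WT cells, above the filter on 1 array.

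The CDK inhibitors showed no common direction. Cdkn1b, which encodes the inhibitor Kip1 that holds resting T cells out of the cycle, stood at 7.999 and 7.97 on the TACI-/- arrays, against 8.24 and 8.01 on the WT arrays. Both TACI-/- values lay just below the WT values, and the genotypes differed by -0.14 ± 0.14 log2 units (SE). Cdkn2d, of the INK4 family that blocks Cdk4 and Cdk6, stood at 7.05 and 6.77 on the TACI-/- arrays, against 6.56 and 6.78 on the WT arrays. The groups overlapped, and the fold change of 0.24 ± 0.16 (SE) was smaller than the gap of 0.28 between the TACI-/- arrays. Cdkn2c, its relative, lay around the filter at 4.001 and 3.55 in TACI-/- and 3.73 and 3.91 in WT cells, a difference of -0.05 that took either sign when single arrays were left out (-0.27 to 0.18).

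The retinoblastoma family and the E2F activators differed little. Rb1, the retinoblastoma gene, had a log2 fold change of -0.10 ± 0.14 (SE), and its relatives Rbl1 and Rbl2 had -0.20 and 0.06. E2f1 and E2f2, which activate replication genes, had 0.15 and 0.12. E2f1 stood at 4.83 and 4.68 on the TACI-/- arrays, against 4.63 and 4.59 on the WT arrays, without overlap, whereas E2f2 split by replicate, at 4.66 and 5.08 against 4.54 and 4.95. The 2 probe sets of Rb1 disagreed. The brighter one, used above, was at 8.32 and 8.51 in TACI-/- and 8.53 and 8.51 in WT cells. The dimmer was at 5.16 and 5.19 against 4.40 and 4.67, a difference of 0.65 with the TACI-/- arrays above both WT arrays, and the mean of both gave 0.27. The direction of Rb1 therefore depends on the probe set.

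The 8 tested licensing genes encode subunits of the replicative helicase, a factor that recruits it and an inhibitor of that factor. They had fold changes between 0.01 and 0.18 log2 units. The helicase subunits Mcm2, Mcm3, Mcm4, Mcm5, Mcm6 and Mcm7 had log2 fold changes of 0.13, 0.04, 0.08, 0.07, 0.15 and 0.01. Mcm6, whose E2F words are shown above, stood at 6.42 and 6.27 on the TACI-/- arrays, against 6.15 and 6.24 on the WT arrays, with no overlap and the largest difference of the 6. Mcm7 was at 6.27 and 6.11 against 6.13 and 6.24, with the groups interleaved. Cdt1, which recruits the helicase, had 0.18 ± 0.15 (SE), with arrays at 5.95 and 6.02 against 5.67 and 5.94. Gmnn, which encodes geminin, the inhibitor of Cdt1, had 0.13 ± 0.22 (SE), and its WT arrays, at 3.84 and 4.37, stood farther apart than the genotypes. Cdc6, the loader, stood at 3.75 and 3.64 on the TACI-/- arrays, against 3.37 and 3.34 on the WT arrays, above the filter on 1 array only, so no fold is given.

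In none of the 8 tested licensing genes did the genotype difference exceed the replicate gaps of both genotypes, where it did in 26.9% of all tested genes. TACI-/- replicate 1 was above TACI-/- replicate 2 for 7 of the 8 tested genes, against 57.6% of all tested genes. It was the highest of the 4 arrays for 7 of the 8, and the same share over all tested genes was not computed. Mcm3, at 5.97 and 5.63 in TACI-/- and 5.82 and 5.69 in WT cells, and Mcm5, at 5.94 and 5.60 against 5.68 and 5.72, likewise had TACI-/- replicate 1 as the highest array. Without TACI-/- replicate 1, Mcm3, Mcm5, Mcm7 and Gmnn had negative fold changes, of -0.13, -0.10, -0.07 and -0.04.

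Of the genes that act in S phase, Pcna and Rrm1 were higher in TACI-/- cells on both arrays, short of the threshold. Pcna encodes the sliding clamp that holds DNA polymerases on the template. It stood at 8.96 and 8.74 on the TACI-/- arrays, against 8.48 and 8.32 on the WT arrays, a 1.37-fold difference (log2 fold change 0.45 ± 0.15, SE, adjusted p in limma = 0.496). The groups did not overlap, and the difference was larger than either gap between replicates, 0.22 and 0.16. Rrm1, the large subunit of ribonucleotide reductase, which makes deoxynucleotides, was at 6.12 and 5.95 against 5.72 and 5.69, a 1.26-fold difference (0.33 ± 0.14, SE, adjusted p in limma = 0.568). Its partner subunit Rrm2, whose level is known to follow S phase more closely, was at 4.20 and 4.11 against 4.05 and 4.27, with a 95% interval from -0.34 to 0.34.

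The thymidylate enzymes had fold changes of opposite sign. Tyms, which makes thymidylate anew, stood at 4.64 and 4.73 on the TACI-/- arrays, against 4.91 and 4.96 on the WT arrays, lower without overlap, and the log2 difference was -0.25 ± 0.13 (SE, adjusted p in limma = 0.652). Tk1, which salvages thymidine, was at 4.30 and 4.503 against 4.21 and 4.23, a difference of 0.18 ± 0.14 (SE). A second probe set of Rrm2 was below the filter on all 4 arrays, at 2.37 and 2.59 against 1.95 and 2.22.

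Stmn1 had the largest difference of the 37 tested genes. It encodes stathmin, a protein that destabilises microtubules and is abundant in dividing lymphocytes. It stood at 5.05 and 5.13 on the TACI-/- arrays, against 4.42 and 4.49 on the WT arrays. The arrays of a genotype differed by 0.08 and 0.07, and the genotypes by 0.64 ± 0.13 (SE), a 1.55-fold difference with an adjusted p of 0.256 in limma. The fold change stayed between 0.60 and 0.68 whichever array was left out.

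Ccnb2, a B cyclin that activates Cdk1 for mitosis, stood at 5.30 and 4.87 on the TACI-/- arrays, against 4.71 and 4.56 on the WT arrays. The groups did not overlap, but the 2 TACI-/- arrays stood 0.43 apart, almost as far as the genotypes, which differed by 0.45 ± 0.18 (SE, adjusted p in limma = 0.565). Mki67, which encodes the proliferation antigen Ki-67, was at 4.67 and 4.48 against 4.19 and 4.37, a difference of 0.30 ± 0.15 (SE, adjusted p in limma = 0.622). Top2a, the topoisomerase that untangles chromosomes, stood at 3.81 and 3.65 on the TACI-/- arrays, against 3.87 and 3.25 on the WT arrays. Its WT arrays held both the highest and the lowest value, so the difference of 0.17 ± 0.22 (SE) has no settled sign.

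Motor and kinase genes of the spindle showed small positive differences. Kif11, the motor that pushes spindle poles apart, was at 4.18 and 4.05 in TACI-/- cells and at 3.81 on both WT arrays, a log2 fold change of 0.31 ± 0.13 (SE, adjusted p in limma = 0.583). Aurkb, the kinase that corrects chromosome attachment, had 0.27, at 4.02 and 4.17 against 3.74 and 3.91. Its WT replicate 1 was below the filter. Aurka, of the spindle poles, and Cdc20, an activator of the anaphase-promoting complex, had 0.18 and 0.15. Ccna2, the cyclin of S and G2 phase, had 0.15, and Tacc3, a spindle protein, 0.07, both with overlapping groups. Of the dim genes, Cdk1, the mitotic kinase, was at 3.72 and 3.77 in TACI-/- and 3.33 and 3.25 in WT cells. These are below the filter on every array, TACI-/- replicate 2 by a margin too small to show in these digits. The separation is thus among values below the filter. Birc5 (survivin), Bub1, Ube2c and Bub1b, of chromosome segregation, lay between 2.79 and 3.86.

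Differences between replicates were of the size of most genotype differences. The genotype difference exceeded both replicate gaps in 11 of 37 tested genes, against 26.9% of all tested genes: 6 of 10 in G2 and mitosis, 3 of 5 among the clamp and nucleotide enzymes, 2 of 6 among the G1 cyclins and kinases, and 0 in the other roles. TACI-/- replicate 1 was the highest array for 16 of the 37, and the same share over all tested genes was not computed. Averaged over the 15 measured G2 and mitosis genes, arrays deviated from the gene means by 0.17 and 0.08 in TACI-/- and by -0.14 and -0.11 in WT cells. For the licensing genes the same averages were 0.15 and -0.02 against -0.11 and -0.01, so there the genotypes separated through TACI-/- replicate 1 and WT replicate 1. For the G1 cyclins and kinases they were 0.00 and -0.01 against -0.04 and 0.05, with WT replicate 2 the highest.

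**Figure D4:**
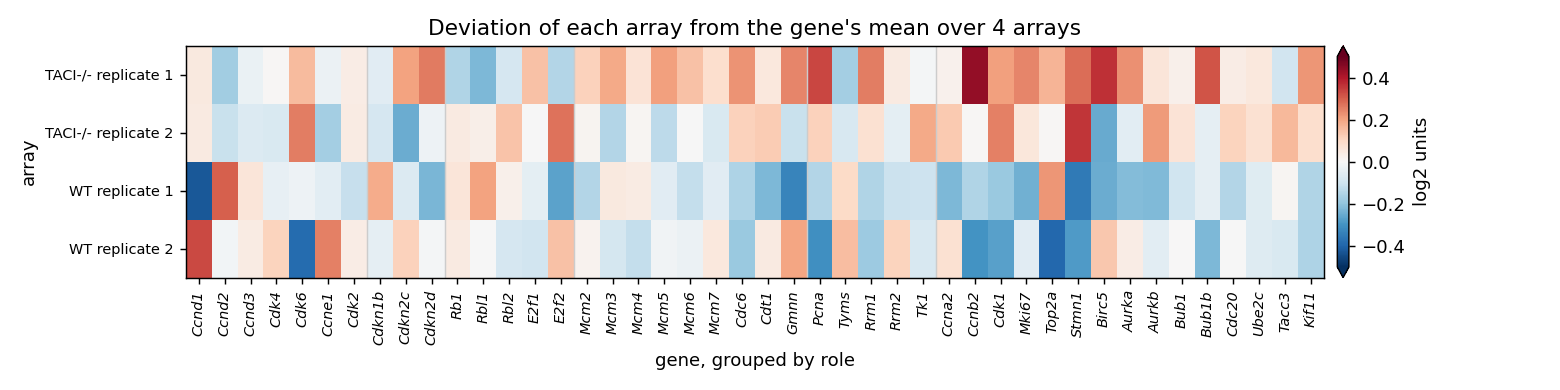
Deviation of each array (y axis) from the gene's mean over the 4 arrays, in log2 units by colour (red above, blue below, colours saturate at 0.5 and -0.5), for the 44 measured genes (x axis, by role). The top row, TACI-/- replicate 1, is red across most licensing, S phase and mitosis genes, and Stmn1 is red in both TACI-/- rows and blue in both WT rows.

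A wider list of cell cycle genes had fold changes of both signs in nearly equal number; the lists were not tested against each other. Of 105 further genes, 100 had a probe set of 1 symbol and 73 were tested. In limma over all genes 0 of the 73 passed the adjusted threshold, where 0.138% of all tested genes did. At an unadjusted limma p under 0.05, 2 were higher and 2 lower, against 4.94% and 3.84% of all tested genes. A positive fold change was found for 36 (49.3%, against 51.8% of all tested genes). Both TACI-/- arrays lay above both WT arrays for 15 and below for 15, against 20.5% and 18.1% of all tested genes. Among the positive genes, Prc1 was at 3.90 and 3.81 in TACI-/- and 3.61 and 3.62 in WT cells. It was above the filter on the TACI-/- arrays alone, which fixes its sign. Divided by role after their values were seen, 18 of 34 replication genes, 8 of 18 regulators and 10 of 21 genes of G2 and mitosis were positive. These other genes of G2 and mitosis had values of both signs.

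On the lower side, Pttg1, which encodes securin, the guard of sister chromatid separation, was at 5.24 on both TACI-/- arrays and 5.81 and 6.05 in WT cells. Its log2 fold change of -0.69 ± 0.14 (SE, adjusted p in limma = 0.258) was opposite in sign to that of Stmn1. Cdc25b, a phosphatase that activates Cdk1, had -0.42 ± 0.13 (SE, adjusted p in limma = 0.437), Fbxo5, an inhibitor of the anaphase-promoting complex, -0.39, and the origin recognition gene Orc4 -0.36. On the higher side, Ndc80, of the kinetochore, had 0.38, Rpa2, which coats single-stranded DNA, 0.34, the polymerase gene Pole 0.33 and the mitotic kinase gene Plk1 0.33. Cks2, a subunit of the CDKs chosen after its values were seen, had the highest value of the list, 0.89 ± 0.42 (SE). Its WT arrays stood far apart, at 4.29 and 5.68, and overlapped the TACI-/- arrays at 6.08 and 5.66. Cks2 had 4 probe sets and Pole 2, and only the brightest of each was read here.

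Markers of other T cell states and of B cells had positive fold changes beside these genes. All 5 regulatory T cell markers had positive fold changes, though Ikzf2 was above the filter on the TACI-/- arrays alone, which fixes its sign, and Izumo1r was at 0.03 with overlapping groups. The 5 had mean levels of 6.13 and 6.12 in TACI-/- and 5.45 and 5.36 in WT cells, and Ctla4, an inhibitory receptor, rose (log2 fold change 1.57 ± 0.14, SE, adjusted p in limma = 0.0246, and 0.052 with no low-value filter; no gene passed with any array left out). Foxp3, which defines regulatory T cells, had 0.58. All 7 markers of activated or memory T cells were positive too, with mean levels of 6.83 and 6.71 against 6.31 and 6.32. Il2rb had 1.11, and Il2ra and Mif had overlapping groups. The 8 measured B cell markers were all positive, with mean levels of 4.31 and 4.17 against 3.96 and 4.05, and Ms4a1, Ebf1 and Blk were below the filter on every array. In these lists, as in the licensing genes, TACI-/- replicate 1 had the highest mean level. The marker lists were chosen with earlier results of these data known, so their shared sign is no independent check. The part of such cells in the cell cycle values was not tested.

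Lists of other cells that divide in lymphoid tissue gave no common direction. Of the germinal centre B cell markers 3 were measured, and Rgs13 and Mybl1 were below the filter on every array. S1pr2 was tested and had a log2 fold change of 0.19 with overlapping groups. The 5 plasma cell markers had mean levels of 4.37 and 4.38 in TACI-/- and 4.47 and 4.30 in WT cells, with Jchain and Tnfrsf17 below the filter on all 4 arrays. The 3 measured thymocyte markers had 4.42 and 4.32 against 4.25 and 4.37. Of these, Rag2 was at 3.92 and 3.87 against 3.49 and 3.51, a log2 fold change of 0.39. It was above the filter on the TACI-/- arrays alone, which fixes its sign. Dntt and Ptcra had -0.08 and -0.13. Of the CD8 T cell, natural killer cell and myeloid markers, 0 of 1, 1 of 2 and 2 of 4 tested genes were positive, and the erythroid markers had no probe set of 1 symbol. Some single differences were large. Cd8b1 had a log2 fold change of -0.65, and of the natural killer cell markers Klrd1 had -0.87 and Nkg7 0.17. Of the myeloid markers Lyz2 had -0.49, Csf1r -0.15, Itgam 0.11 and Cd68 0.71. None of these passed the adjusted threshold. Naive T cell markers were measured for 6 of 8, and 5 of the 6 had negative fold changes, the lowest being -0.48 for Il7r, the receptor for interleukin-7. Of the 6, Cd4 and Lef1, both at -0.04, and Ccr7, at 0.03, had overlapping groups.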

How the data were processed

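Total RNA of 4 samples was hybridised to Affymetrix Mouse Gene 2.0 ST arrays, per the labels' protocols. The deposited table gives each probe set a log2 value for every array. The submitters' processing notes name RMA (robust multi-array average) and Partek without a version. That the base is 2 follows from RMA's usual output and the range of values, and is not stated. RMA normalizes across arrays, which removes any global shift.

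Titles gave the genotype, 2 samples each, and all columns were used. Of 41345 probe sets, 23521 had exactly 1 gene symbol in the platform annotation. A gene was represented by its probe set with the highest mean, and tested where at least 2 arrays reached that array's 40th percentile. The comparison used limma 3.58.1 (R 4.3.3), with lmFit and eBayes, genotype as the single term, two-sided tests and Benjamini-Hochberg adjustment over 13782 genes at 0.05. The fit was run on simulated data, where recovery was required only for changes above 2-fold. That check does not bear on how often smaller ones are missed. SE is the moderated standard error. Genes with values on each array were those at unadjusted p under 0.05, the inhibitors, Mki67, Top2a, Pcna and Stmn1, and others by lowest p within a role; values of the remaining genes were added after they were seen. Of the wider list, up to 4 genes per direction were named by lowest p.

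The genes and lists were chosen with earlier results of these data known. The replicate numbers are not stated to pair samples, so the fit had no block. The alternatives were 3 other filters, 2 other normalizations, the mean over probe sets, 3 variance models, the block, and leaving out each array.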

Additional observations from a re-analysis of the deposited data

How the results depend on the processing

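No cell cycle gene of the 46, and none of the wider list, passed an adjusted p of 0.05 in limma under any of the 14 alternatives. The count over all genes, 19, was 3 without the low-value filter, 46 with a mean-variance trend, 0 without variance moderation and 0 without any 1 array. Genes at an unadjusted p under 0.05, 1210, ranged from 721 (without WT replicate 1) to 1145 with an array left out.

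Of the 37 tested genes, the 5 at an unadjusted p under 0.05 became 1 to 4 with an array left out, and 3 with the replicate block (Ccnb2, Pcna and Stmn1, all higher). Without the low-value filter 6 of the 44 measured genes were at that level, all higher, where Cdk1 and Cdc6 joined and Rrm1 dropped out. With a mean-variance trend there were 6, where Ccnd2, which was lower, joined. Without variance moderation 2 were higher, Stmn1 and Kif11, and 2 lower. Stmn1 was at that level under all 14. The replicate number as a block changed no adjusted call of these genes. Replicate 1 minus replicate 2 correlated at -0.0321 between genotypes over 13782 genes, and the labels give no pairing.

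With an array left out, medians ranged from 0.054 to 0.15 over all tested members, from -0.11 to -0.022 for the G1 cyclins and kinases, from -0.15 to 0.18 for the inhibitors, from -0.086 to 0.072 for the retinoblastoma and E2F genes, from 0.0023 to 0.19 for licensing, from 0.083 to 0.24 for the clamp and nucleotide enzymes, from 0.20 to 0.30 for G2 and mitosis and from -0.030 to 0.032 for the wider list. The G1 median was -0.070 without the filter and -0.066 after quantile normalization again. The clamp and nucleotide median was 0.26 with the mean over probe sets, where dim Rrm2 dropped out. The G2 and mitosis median was 0.18 without the filter, 0.27 with a filter on the mean and 0.30 with the 50th percentile, which differ in the genes tested.

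Of 510 fold changes of single genes under alternatives, 19 changed sign, in 13 genes, 24 genes keeping theirs throughout. Rb1 was 0.27 with the mean over probe sets. The others came from leaving out an array, with ranges from -0.15 to 0.0050 for Cdk4, -0.27 to 0.18 for Cdkn2c, -0.053 to 0.17 for Rbl2, -0.086 to 0.33 for E2f2, -0.13 to 0.21 for Mcm3, -0.0027 to 0.16 for Mcm4, -0.095 to 0.24 for Mcm5, -0.074 to 0.089 for Mcm7, -0.13 to 0.40 for Gmnn, -0.11 to 0.11 for Rrm2, -0.13 to 0.48 for Top2a and -0.062 to 0.20 for Tacc3.

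Arrays have no depth. Most genes of G2 and mitosis lay near the filter, and how far signal stands above background there was not measured.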
